A study of Homo sapiens with 9 samples.

Results

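The NR4A genes are NR4A1, NR4A2 and NR4A3, a family of 3 genes for orphan nuclear receptors. Open chromatin around them was examined in peak lists from formaldehyde-assisted isolation of regulatory elements (FAIRE) followed by sequencing, which enriches DNA free of nucleosomes. Peaks of 4 lists that overlapped or touched were joined into merged regions, and a region was taken as belonging to an NR4A gene when it lay in the gene body or within 50 kb of the gene start in GENCODE release 44 on GRCh37. This rule used positions alone and gave 22 regions, 12 at NR4A1, 3 at NR4A2 and 7 at NR4A3, of 40703 merged regions in all.

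All cells were Jurkat, an established human T cell leukaemia line. By their labels, non-stimulated (NS) cells received no stimulus, and stimulus-withdrawn (SW) cells were stimulated with the phorbol ester PMA at 24 ng/mL plus calcium ionophore at 1 μM and then rested for 1 day without the stimulus. The labels give the stimulation as 4 h, where the study's methods give a shorter one. Cells of each state were pre-treated with DMSO as vehicle or with 15 μM rottlerin, described in the study as a PKC inhibitor, for 1 h. Stimulated (ST) cells, re-stimulated (RS) cells and the total input, a mixture of unenriched DNA, complete the 9 samples. No list labelled as theirs was used here. Jurkat cells are a single transformed line, which limits them as a model of T cells.

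The labels and the study's methods differ on what the 4 lists are. The labels assign them to NS and SW cells after DMSO and to NS and SW cells after rottlerin, whereas the methods describe peaks called on the DMSO samples of the NS, ST, SW and RS states. Merging all peaks of the 4 lists gave 40731 regions, and 28 of these lay off the main chromosomes. The methods give the same total for the DMSO samples of the 4 states and also leave out 28. The counts thus go with the account in the methods, and a label may not name the true state or treatment of its list. Each list is called by its label as a name only (NS, SW, NS rottlerin or SW rottlerin). No difference between lists is read as an effect of stimulation, rest or rottlerin. Lists that share a word in their labels may not share a state or treatment. Each label has 1 library, so there is no replicate error to set a difference against, and no test or p-value is given. The lists held 18977 (NS), 20132 (SW), 23835 (NS rottlerin) and 30409 (SW rottlerin) peaks. The depth of sequencing does not follow from a list, so the absence of a peak says that none was called from that library, whatever its depth was. As a check of the cells, 5 of 8 T cell genes had a peak within 1 kb of their start in the lists labelled NS rottlerin and SW rottlerin and 4 of 8 in those labelled NS and SW, against 0 of 3 B cell and 0 of 3 myeloid genes in any list. Over all protein-coding genes the share was 35.8% in NS, 37.1% in SW, 40.5% in NS rottlerin and 44.8% in SW rottlerin. Counts of so few genes therefore say little about the cell type. LCK and CD2, both among the T cell genes counted, had no peak within 1 kb of the canonical start in any list. LCK did have a peak at its gene start in all but the list labelled NS rottlerin.

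NR4A1 (Nur77), NR4A2 (Nurr1) and NR4A3 (Nor1) bind DNA as monomers at the NBRE sequence, and NR4A1 and NR4A2 also pair with retinoid X receptors. They have no known physiological ligand of the classical kind, and their activity is set largely by how much of them is made. In T cells they are immediate early genes of antigen receptor signalling. MEF2 factors at the NR4A1 promoter are held in check by repressors such as HDAC7 and CABIN1, and calcium entry releases them from CABIN1. CREB family factors act at promoters of the family, and the receptors are known for roles in thymocyte deletion, regulatory T cells and exhaustion.

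The sequences of 4 regions are given because these regions are described below. The first is the region over the canonical start of NR4A3, printed up to the first transcribed base, and the next is the region nearest upstream of the canonical NR4A2 start. The last pair are the region with the highest column 7 among the 22 (column 7 is the fold enrichment over total input, defined with its values below) and the region with most AP1 letters. All are on GRCh37, 5′ to 3′ on the strand of the gene they are named with. Capitals mark letters of the searched motifs on either strand, which are TGACG or its reverse CGTCA from cAMP response elements, GGAAA or its reverse TTTCC (NFAT), TGANTCA (AP1), and, for the family of GATA factors, AGATAA and also TGATAA.
NR4A3 canonical start, chr9:102583906-102584136, plus strand: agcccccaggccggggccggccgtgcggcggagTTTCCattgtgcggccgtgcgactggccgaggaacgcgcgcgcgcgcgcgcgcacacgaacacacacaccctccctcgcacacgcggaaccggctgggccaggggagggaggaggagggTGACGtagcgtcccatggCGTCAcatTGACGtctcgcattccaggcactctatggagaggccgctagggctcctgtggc
NR4A2 upstream region, chr2:157190891-157191190, minus strand: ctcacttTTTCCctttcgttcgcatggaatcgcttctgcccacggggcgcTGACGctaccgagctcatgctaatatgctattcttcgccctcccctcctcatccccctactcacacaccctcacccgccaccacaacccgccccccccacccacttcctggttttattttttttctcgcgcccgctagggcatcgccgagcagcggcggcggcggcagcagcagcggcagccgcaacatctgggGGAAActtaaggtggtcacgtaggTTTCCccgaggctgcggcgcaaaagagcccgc
Highest column 7, in an intron of ACVR1B, chr12:52366640-52366939, plus strand: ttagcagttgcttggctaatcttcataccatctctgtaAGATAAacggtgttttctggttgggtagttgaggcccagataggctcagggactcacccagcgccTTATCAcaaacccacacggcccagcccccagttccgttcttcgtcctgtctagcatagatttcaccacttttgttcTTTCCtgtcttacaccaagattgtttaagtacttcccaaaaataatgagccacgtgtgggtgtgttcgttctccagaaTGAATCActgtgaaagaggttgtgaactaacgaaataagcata
Most AP1 letters, 43.4 kb before NR4A3, chr9:102540610-102540838, plus strand: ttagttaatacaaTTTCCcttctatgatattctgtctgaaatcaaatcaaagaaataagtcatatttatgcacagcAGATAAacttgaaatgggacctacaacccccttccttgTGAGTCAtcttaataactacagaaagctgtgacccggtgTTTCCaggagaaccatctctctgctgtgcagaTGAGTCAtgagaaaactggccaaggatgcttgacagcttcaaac

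The 3 receptor genes differed in how many regions they held and in which lists these were found. NR4A1 had 12 regions, of which 6 had a peak in the NS list and 4 were present in all 4 lists. NR4A2 had 3 regions, and none of them had a peak in the NS list or in the list labelled NS rottlerin. Of 11197 protein-coding genes with at least 3 regions, 4.96% had no NS peak and 0.759% had none in either NS-labelled list. Only 3028 of these genes had exactly 3 regions, and the others had more chances of an NS peak. The shares are therefore not those of genes with as few regions as NR4A2, which were not computed. At NR4A2, 2 of the 3 regions were in the list labelled SW rottlerin alone, and the difference was not tested. NR4A3 had 7 regions, of which 1 had an NS peak, and that one was present in all 4 lists. In total 15 of the 22 regions (68.2%) had no NS peak, where 53.5% of all merged regions had none. A peak in all 4 lists was found at 5 of the 22 (22.7%) against 26.6% of all regions. A further 8 (36.4%) had a peak in the list labelled SW rottlerin alone, against 18.2% of all regions. Every list was also reduced to its 18977 peaks of lowest q-value. Then 12 of 19 NR4A regions (63.2%) had no NS peak against 41.5% of all regions, and 7 (36.8%) were in the list labelled SW rottlerin alone against 7.85%. Without the list labelled SW rottlerin, the longest, NR4A2 kept 1 region and NR4A3 kept 3, and 7 of 14 NR4A regions (50.0%) had no NS peak against 43.3% of all regions.

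By list, 7 of the 22 regions (31.8%) had a peak in the list labelled NS, where 46.5% of all regions did. The list labelled SW had a peak at 12 (54.5%) against 49.3% of all regions. The list labelled NS rottlerin had a peak at 9 (40.9%) against 58.4%. The list labelled SW rottlerin had a peak at 20 (90.9%) against 74.5%. The NR4A share lay below that of all regions in both NS-labelled lists and above it in both SW-labelled lists. With every list reduced to 18977 peaks, the SW share was 57.9% against 58.4% of all regions and so no longer above, while the SW rottlerin share was 84.2% against 58.5%, the NS share 36.8% against 58.5% and the NS rottlerin share 42.1% against 58.5%. These shares describe regions in 3 neighbourhoods, and the differences were not tested.

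**Figure D1:**
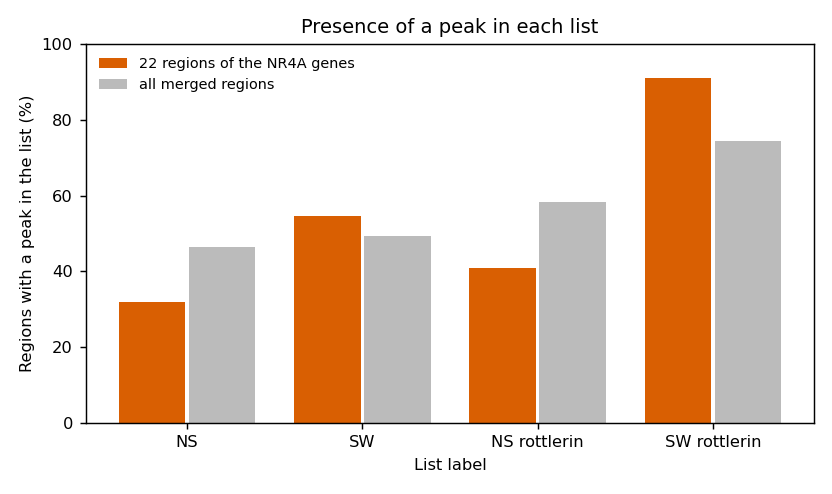
Share of regions with a peak in each list, in percent, for the 22 NR4A regions (coloured) and all merged regions (grey). The NR4A share is below that of all regions for the lists labelled NS (31.8% against 46.5%) and NS rottlerin, and above it for those labelled SW and SW rottlerin (90.9% against 74.5%). With lists of equal length the SW share is no longer above (57.9% against 58.4%).

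**Figure D2:**
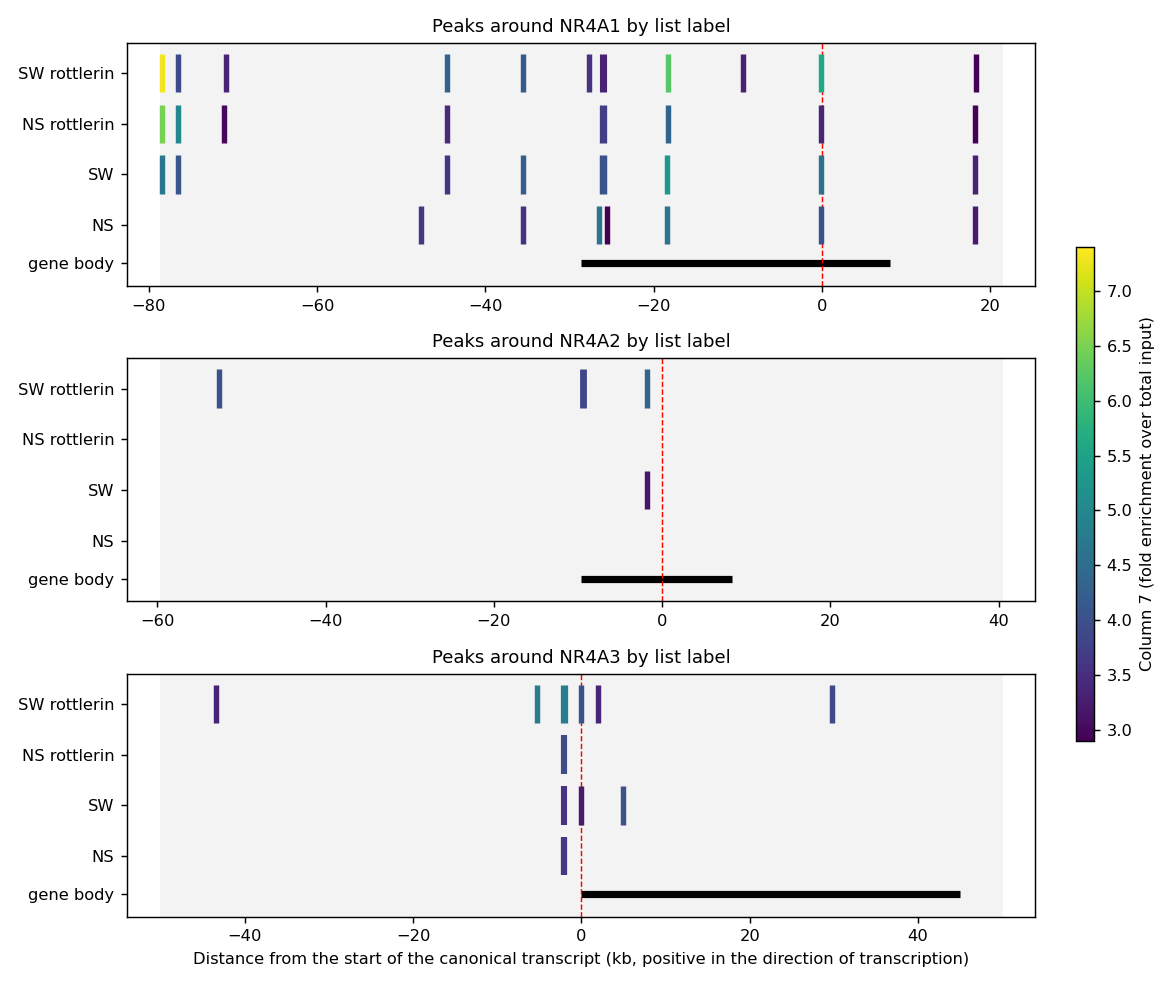
Peaks of the 4 lists around the NR4A genes, by distance from the start of the canonical transcript in kb. Shading marks the window of each gene, black bars the gene body, the dashed line the canonical start, and colour the fold enrichment of column 7. Peaks narrower than the tick are drawn at the width of the tick. NR4A2 is empty in both NS-labelled lists, whereas NR4A1 has peaks in every list. Of protein-coding genes with at least 3 regions, most of which have more regions than NR4A2, 0.759% are empty in both.

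NR4A1 lies on chromosome 12 from 52416616 to 52453291 on the plus strand, with 22 annotated transcripts. Its gene start is that of a long transcript, NR4A1-202, and the canonical transcript NR4A1-204 starts 28.6 kb further in, at 52445226. The region over this canonical start, 52444914 to 52445301, was present in all 4 lists. Column 7 of a list is the fold enrichment of a peak over total input as given by the peak caller, and at the NR4A1 start it was 3.99 in NS, 4.54 in SW, 3.36 in NS rottlerin and 5.61 in SW rottlerin. The highest value stood at percentile 87.6 of its own list and the lowest at percentile 19.3. The peaks differed in width as well, with 284 bp in NS, 318 bp in SW, 215 bp in NS rottlerin and 388 bp in SW rottlerin. Both SW-labelled peaks were wider and higher than both NS-labelled peaks at this start.

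The upstream edge of these peaks was placed differently by list. Measured from the canonical start, the peak ran from -248 to 35 bp in NS, from -263 to 54 bp in SW, from -210 to 4 bp in NS rottlerin and from -312 to 75 bp in SW rottlerin. The SW rottlerin peak began farthest upstream and the NS rottlerin peak nearest to the start.

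**Figure D3:**
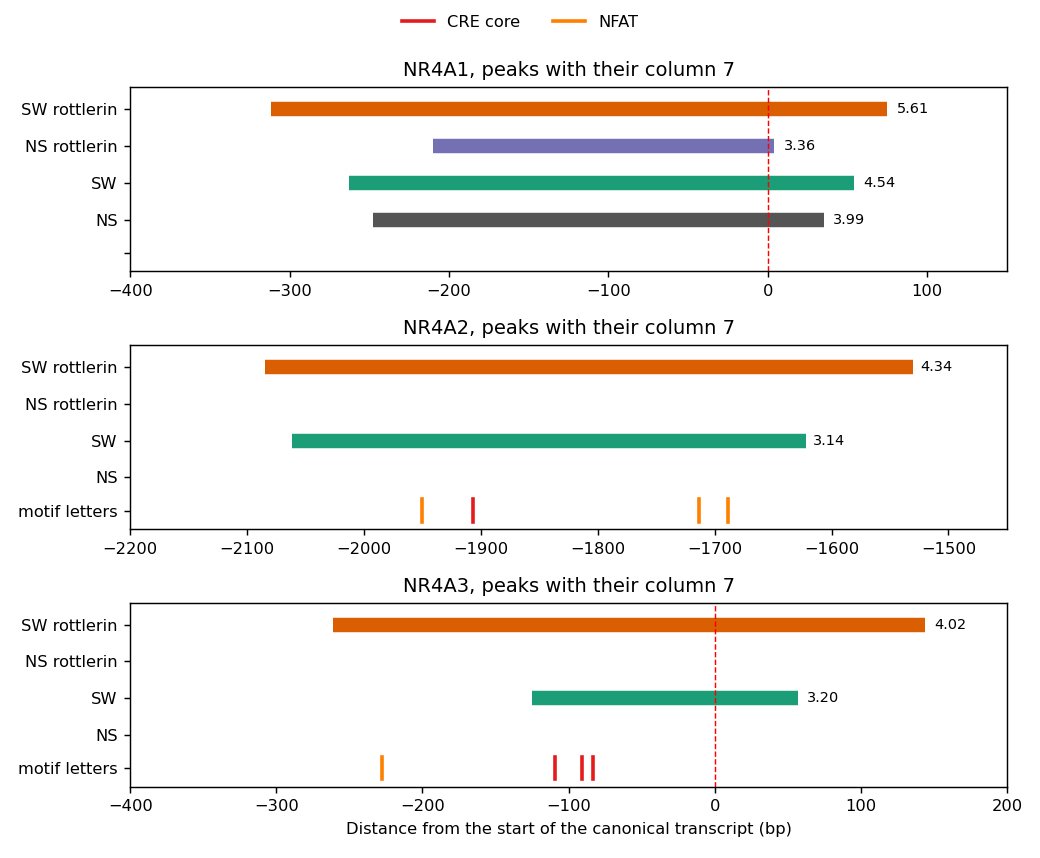
Peaks over or nearest upstream of the canonical starts of NR4A1, NR4A2 and NR4A3, by distance in bp from that start (dashed line). Bars are the peaks of each list with their column 7, and ticks mark the first base of motif letters at NR4A2 and NR4A3 (CRE core stands for TGACG). At NR4A1 every list has a peak, the widest in SW rottlerin (388 bp). At NR4A2 and NR4A3 both SW-labelled lists have a peak and both NS-labelled lists have none. The SW peaks there are low in their list, at percentiles 11.2 and 13.2 of column 7.

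The other 4 regions in the NR4A1 gene body lay in introns of its long transcripts before the canonical start. The region from 52426703 to 52427075, 18.3 kb before the canonical start, was present in all lists with a column 7 of 4.66 in NS, 5.28 in SW, 4.34 in NS rottlerin and 6.22 in SW rottlerin. The order of the lists was the same as at the canonical start. The wide region from 52418625 to 52419848, 26.0 kb before the canonical start, was also in all lists but in another order, with 4.61 in NS, 4.05 in SW, 3.73 in NS rottlerin and 3.33 in SW rottlerin. The NS list had 2 peaks there, of 4.61 and 2.89, where each other list had 1. The regions at 52417326 to 52417695 and at 52435756 to 52435941 had a peak in the list labelled SW rottlerin alone, with a column 7 of 3.57 and 3.32. The latter lies 259 bp from the start of a shorter transcript, NR4A1-213.

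Upstream of the NR4A1 gene start, 6 regions lay in or next to 2 neighbouring genes. Within introns of ACVR1B, which encodes an activin receptor, the region from 52366569 to 52367010 had no NS peak and a column 7 of 4.70 in SW, 6.48 in NS rottlerin and 7.33 in SW rottlerin. The value of 7.33 is the highest at any of the 22 regions, at percentile 98.1 of its list. It lies 49.8 kb before the NR4A1 gene start, just inside the window, and 78.4 kb before the canonical start. A second ACVR1B intron region, 52368551 to 52368812, also had no NS peak, with 4.09 in SW, 5.00 in NS rottlerin and 3.90 in SW rottlerin. The last of them, 52373835 to 52374600, was found in the rottlerin-labelled lists alone, with 2.99 in NS rottlerin and 3.35 in SW rottlerin. These were the regions of the family where the NS rottlerin list had peaks and the NS list had none, together with 1 at TAMALIN.

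TAMALIN encodes a scaffold protein that links receptors to trafficking proteins. The region over its start, 52400535 to 52400770, had a column 7 of 3.58 in SW, 3.46 in NS rottlerin and 4.32 in SW rottlerin and no NS peak. The region in its 3′UTR, 52409527 to 52409817, had 3.54 in NS, 4.20 in SW and 4.16 in SW rottlerin and no NS rottlerin peak. The intergenic region from 52397475 to 52397660, 3.16 kb from the TAMALIN start, was held by the NS list alone, with 3.64, as no other of the 22 regions was. On the other side of NR4A1, the region at the start of the autophagy gene ATG101, 52463346 to 52463811, was in all lists within a narrow range, with 3.22 in NS, 3.33 in SW, 2.92 in NS rottlerin and 2.93 in SW rottlerin. Several of the 12 regions counted for NR4A1 are therefore at least as near to other genes.

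NR4A2 lies on chromosome 2 from 157180949 to 157198860 on the minus strand, with 15 transcripts. Its canonical transcript NR4A2-201 starts at 157189233, 9.63 kb after the gene start, and no list had a peak within 1 kb of it. The region nearest upstream, 157190763 to 157191318, is centred 1.81 kb before the canonical start in an intron of the longer transcript NR4A2-204. Its column 7 was 3.14 in SW and 4.34 in SW rottlerin, with no peak in either NS-labelled list. The SW value stood at percentile 11.2 of its list and the SW rottlerin value at percentile 61.2. The SW peak ran from -2062 to -1622 bp and the SW rottlerin peak from -2085 to -1530 bp from the canonical start. The gene start itself was covered by a region of 1049 bp, 157198170 to 157199218, with a peak in the list labelled SW rottlerin alone and a column 7 of 3.86. The remaining region, 157241816 to 157241988, lies 43.0 kb before the gene start in intergenic sequence, with 4.02 in the list labelled SW rottlerin alone.

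NR4A3 lies on chromosome 9 from 102584137 to 102629173 on the plus strand, with 4 transcripts, and its canonical transcript NR4A3-203 starts at 102584167. The region over this start, 102583906 to 102584311, had a column 7 of 3.20 in SW and 4.02 in SW rottlerin and no peak in the NS-labelled lists. These values stood at percentiles 13.2 and 49.7 of their lists. The SW peak ran from -125 to 57 bp and the SW rottlerin peak from -261 to 144 bp. The TGACG letters at -109, -91 and -83 bp lie inside both peaks, and the GGAAA letters at -228 bp inside the SW rottlerin peak alone. The region next upstream, 102581492 to 102582608, is centred 2.12 kb before the canonical start over an exon of a long non-coding RNA, and was present in all lists. Its column 7 was 3.69 in NS, 3.59 in SW, 3.92 in NS rottlerin and 4.78 in SW rottlerin, with widths of 960, 937, 943 and 1117 bp. A wide region with a peak in every list thus lay next to a start with peaks in the SW-labelled lists and none in the NS-labelled lists.

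The other 5 regions of NR4A3 were each found in 1 list. The list labelled SW alone held 102589032 to 102589217, 115 bp from the start of the transcript NR4A3-201 and over its 5′UTR and coding sequence, with a column 7 of 4.04. The list labelled SW rottlerin alone held the regions centred 43.4 kb and 5.33 kb before the canonical start and 2.02 kb and 29.8 kb after it. Their column 7 was 3.33, 4.75, 3.37 and 3.89 in this order. The farthest upstream of these lies in STX17-DT, a long non-coding RNA gene whose body also holds the other NR4A3 regions. It is the region printed above for its AP1 letters, 2 matches of TGAGTCA at -43443 and -43372 bp. Its peak stood at percentile 19.0 of its list, and its −log10 q-value of 1.43 was the lowest among the NR4A peaks.

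**Figure D4:**
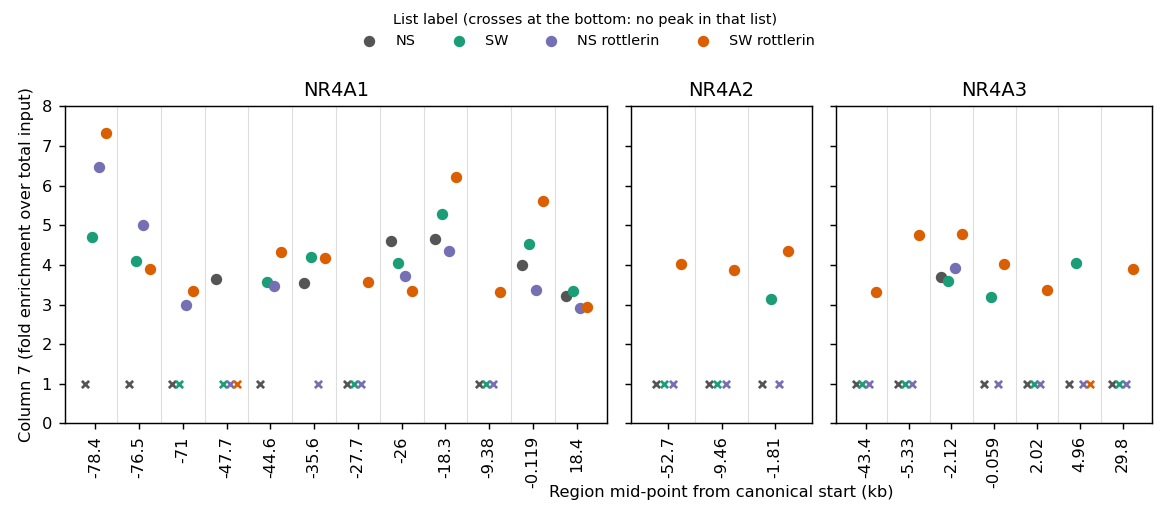
Column 7, the fold enrichment over total input, of every NR4A region in each list, ordered by the distance of the region's mid-point from the canonical start in kb. Points are values of single libraries, and crosses mark lists without a peak and carry no value. SW rottlerin gives the highest value at the NR4A1 start (5.61) and at the region before NR4A3 that all lists hold (4.78), and the lowest at -26 kb of NR4A1 (3.33).

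Where a region had a peak in both lists, column 7 was also set against that of the NS list. In the list labelled SW it was higher at 4 of 6 NR4A regions, with ratios from 0.879 to 1.19, where 45.1% of 12550 regions were higher. In the list labelled NS rottlerin it was higher at 1 of 5, with ratios from 0.809 to 1.06, against 58.7% of 13702. In the list labelled SW rottlerin it was higher at 4 of 6, with ratios from 0.723 to 1.40, against 63.2% of 14037. Over all regions the middle 90% of ratios ran from 0.727 to 1.33 for SW, from 0.767 to 1.42 for NS rottlerin and from 0.765 to 1.48 for SW rottlerin. All NR4A ratios but one lay inside these ranges. The exception was the intronic NR4A1 region at 52418625, whose SW rottlerin ratio of 0.723 stood at percentile 3.17, and this is the region where the NS list had 2 peaks. With a width-weighted mean over those peaks, its SW rottlerin ratio was 0.888 and its SW ratio moved from 0.879 to 1.08. The ranges above rest on the highest column 7 of a region and were not computed for this mean. At the NR4A1 start the SW rottlerin ratio of 1.40 stood at percentile 92.3, the SW ratio of 1.14 at percentile 81.1 and the NS rottlerin ratio of 0.841 at percentile 11.9.

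The median column 7 over NR4A regions was 3.69 in NS, 4.05 in SW, 3.73 in NS rottlerin and 3.96 in SW rottlerin, where the medians of all peaks were 4.05, 4.03, 4.08 and 4.03. Above the median of their list stood 2 of 7 NR4A regions in NS, 7 of 12 in SW, 3 of 9 in NS rottlerin and 8 of 20 in SW rottlerin.

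Among 20136 protein-coding genes, the median number of regions by the same rule was 3 and the 90th percentile was 7. As many regions as NR4A1 or more were held by 1.72% of genes, as many as NR4A3 or more by 13.1%, and as many as NR4A2 or more by 55.6%. Only genes with a body longer than 50 kb have larger windows. The NR4A bodies measure 36.7 kb, 17.9 kb and 45.0 kb, so the windows of the NR4A genes are equal in size. A peak within 1 kb of the canonical start was found in all 4 lists for 31.9% of genes, NR4A1 among them, and in no list for 52.6%, NR4A2 among them.

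**Figure D5:**
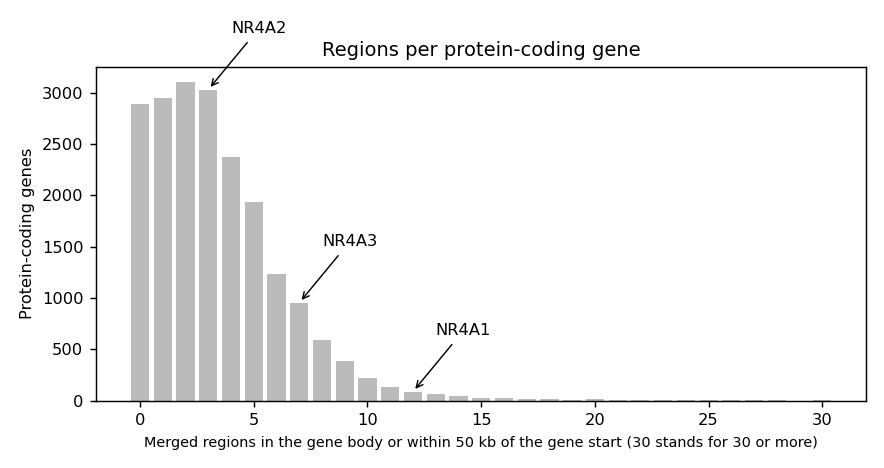
Number of protein-coding genes (vertical axis) by number of merged regions in the gene body or within 50 kb of the gene start (horizontal axis, with 30 standing for 30 or more). Arrows mark NR4A2 at 3 regions, NR4A3 at 7 and NR4A1 at 12, where 1.72% of genes have as many or more.

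Genes that act with the NR4A receptors were counted in the same way, from lists made for this comparison. The 11 inducers and repressors of NR4A transcription (MEF2 factors, HDAC7, CABIN1, CREB1, CRTC2, calcineurin subunits and NFAT factors) held 69 regions, of which 53.6% had no NS peak and 24.6% were in all 4 lists. Their genes with most regions were NFATC2 with 12 and NFATC1 with 11, and 7 of the 11 genes had a peak within 1 kb of the canonical start in all 4 lists. Of the 3 retinoid X receptor genes, RXRB had 3 regions, all in every list, while RXRA and RXRG had 2 each and no NS peak, which put 57.1% of the 7 regions without an NS peak and 42.9% in all lists. The 7 genes of targets and interactors (FOXP3, IKZF2, FASLG, BCL2, IRF4, ENO3 and POMC) held 55 regions, 61.8% of them without an NS peak and 25.5% in all 4 lists. Of these, FASLG, the death ligand gene, had most with 16, followed by IKZF2, which encodes Helios, with 15. The 10 other immediate early genes held 70 regions, of which 47.1% had no NS peak and 44.3% were in all 4 lists. FOSB had 11 and IER3 had 10, and 8 of the 10 had a start peak in all lists, where 1 of the 3 NR4A genes did. The share over all protein-coding genes was 31.9%. The NR4A shares were 68.2% and 22.7%, and the differences between sets of so few genes were not tested.

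The NR4A regions were also described by their letters, in the central 300 bp of each region and on both strands. TGACG was found in 5 of 22 (22.7%) against 17.5% of all merged regions, and the full palindrome TGACGTCA, which contains it, in 0 of 22 against 0.980%. The AP1 letters TGANTCA were found in 4 (18.2%) against 17.9%, and the NFAT letters GGAAA, short enough to be common, in 14 (63.6%) against 71.0%. EGR letters (GCGTGGGCG or GCGGGGGCG) were found in 3 (13.6%) against 2.52%, among them the regions 2.12 kb before and 2.02 kb after the canonical NR4A3 start. The receptors' own NBRE letters AAAGGTCA were found in 0 of 22 against 1.45% of all regions. MEF2 letters were found in 1 (4.55%) against 0.781%, SRF letters in 1 (4.55%) against 1.64%, and NFκB letters in 2 (9.09%) against 4.33%. Letters of the GATA family, AGATAA and also TGATAA, were found in 6 (27.3%) against 31.5%, CACCTG (bHLH) in 6 (27.3%) against 21.4%, TGTGGTC or TGTGGTT (RUNX) in 3 (13.6%) against 22.8%, and ACCGGAAA, ACCGGAAG or CCGGAAGT (ETS) in 0 against 3.56%. A match describes letters and shows no binding.

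Repeats of the same letters were looked at after these values were seen. Each cut-off was the largest number of matches in any NR4A region, so at least 1 NR4A region passes by construction. The shares over all regions therefore do not measure how unusual the NR4A regions are. At least 4 matches of TGACG in the central 300 bp were found at 63 of 40703 regions (0.155%), of which 2 are NR4A regions, the NR4A3 start among them. At least 2 AP1 matches were found at 2.54% of regions and at 1 NR4A region, 43.4 kb before NR4A3.

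The base composition of the NR4A regions varied between the genes. Median GC content was 60.1% at NR4A1, 62.0% at NR4A2 and 44.7% at NR4A3, against 46.3% over all regions. The median number of CpG dinucleotides in 300 bp was 13, 24 and 3, against 4. At NR4A3 this median spans distinct kinds of sequence, since the region over the start had 68.3% GC and 34 CpG and the region 2.12 kb before it 75.7% and 40, while the region printed for its AP1 letters had 39.7% and 2. The NR4A2 region 1.81 kb before its canonical start had 62.0% and 27. The part of base composition in the counts of GC-rich letters such as EGR was not tested.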

How the data were processed

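FAIRE-seq of Jurkat cells gave 9 samples with 1 library each. Peak lists labelled as 4 of them were used, and none labelled as the other 5. According to its methods and labels, the authors used cutadapt for trimming, Bowtie2 for mapping (hg19), Picard for removal of duplicates, and MACS2 in its Broad setting for peaks of each sample over total input, and HTSeq is also among the tools in the submitters' processing notes. Versions are not given in the sources used here. Each deposited list has peak positions, a score (10 times the −log10 q-value, cut to a whole number, at all but 3 of the peaks used), the fold enrichment as a ratio (column 7), and the −log10 of the p-value (not used) and of the q-value, all made by the authors' peak caller. Depth is unknown from the deposited lists, so no interval was computed.

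Peaks off the 24 main chromosomes were not used. Overlapping or touching peaks were merged, a region took the highest column 7 where a list had several peaks, and gene windows were taken from GENCODE release 44 on GRCh37, the build of the lists. The distance of a region is that of its mid-point. Motif letters were sought as exact matches in the central 300 bp. Sequences are printed for 4 regions, and 1 other sequence is not reported here. All 3 NR4A genes are named with every region, and of each list of genes that act with them the 2 genes with most regions and any gene with none, which no list had. Cell type markers are given as counts. LCK, CD2 and the retinoid X receptor genes are named for counts of a few members, after their values were seen. Members, gene lists and motifs were chosen with earlier results of these data known.

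On simulated data, 5000 of 5000 merged regions had the right lists and were equal to those of bedtools, 1500 of 1500 planted motifs were found, and 500 of 500 gene windows were right. Alternatives were other score limits, equal list lengths, merging distances, windows, gene starts, the share of a region a peak must cover, the scale and summary of column 7, and motif windows. The tools were bedtools 2.31.1, samtools 1.23.1 and Python 3.11.15 with pysam 0.24.0, matplotlib 3.10.9, pandas 2.3.3, numpy 2.4.6 and scipy 1.17.1.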

Additional observations from a re-analysis of the deposited data

How the results depend on the processing

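Of 162 values under alternatives, 140 stayed within 1.5 times the main count or on the same side of a ratio of 1. No paired analysis was possible because each label has 1 library. With the higher-scoring 50% of each list, NR4A2 kept 0 regions (0 without an NS peak), NR4A3 had 4, and of 13 regions in all 9 had no NS peak and 1 was in all lists, fewer peaks being used by construction. A window of 25 kb left 3 NR4A1 regions without an NS peak. Requiring a peak to cover at least 50% of a region left 3 in all lists. Shares over all merged regions were not computed under these settings, so the counts have no background beside them. Leaving out a list was chosen after seeing the data. Without the list labelled SW rottlerin, NR4A2 had 1 region (1 without an NS peak) and NR4A3 had 3 (2 without), and of 14 regions in all 7 (50.0%) had no NS peak, against 43.3% of all merged regions. So the number of NR4A2 and NR4A3 regions rests largely on that list, the longest.

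The SW to NS ratio of the NR4A1 region at 52418625 turned from 0.879 to 1.08 with a width-weighted mean, which averages the 2 NS peaks. TGACG was found in 8 regions in 500 bp and 9 in whole regions, MEF2 letters in 2 and 2, ETS letters in 1 and 2, and RUNX letters in 5 in 500 bp, with more sequence searched. Shares over all merged regions were not computed for these motif windows.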

Other observations

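The regions next outside the windows were also listed. Before NR4A1, the next region on chromosome 12, 52364939 to 52365782, lies 51.3 kb before the gene start and was in all 4 lists, with a column 7 of 4.16 in NS, 4.30 in SW, 4.33 in NS rottlerin and 3.70 in SW rottlerin. Before NR4A2, the next region on chromosome 2, 157257246 to 157257917, lies 58.7 kb before the gene start and had the same lists as the region nearest the canonical start, with 3.05 in SW and 4.00 in SW rottlerin and no peak in the NS-labelled lists. Before NR4A3, the next region on chromosome 9, 102483051 to 102483293, was in all lists, with 3.63 in NS, 4.96 in SW, 5.73 in NS rottlerin and 4.12 in SW rottlerin. On the downstream side the next regions were farther away. After NR4A1, the next region, 52484251 to 52484450, lies 67.7 kb after the gene start and had a peak of 3.16 in NS and none in the other lists. After NR4A2, the next region in the lists as used here, 156002345 to 156002661, lies 1200 kb after the gene start, with 5.47 in NS, 5.62 in SW and 4.91 in SW rottlerin. After NR4A3, the next region, 102718066 to 102718287, lies 134 kb after the gene start and had a peak of 2.82 in SW rottlerin and none in the other lists.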
